A study of Homo sapiens with 6 samples.

Results

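The imprinted cluster of chromosome 15 at SNRPN held 7 protein-coding genes, MKRN3, MAGEL2, NDN, SNRPN, SNURF, UBE3A and ATP10A, of 19819 protein-coding genes on chromosomes 1 to 22 and X. The genes were taken by name, and each was described by its promoter, from 1000 bases before to 500 bases after the canonical start, and by its body, from there to the end of the gene. The CpG-dense control region at the shared start of SNRPN and SNURF and all 1-kb tiles from 100 kb before MKRN3 to 100 kb after ATP10A were added. SNRPN and SNURF have the same canonical start, so the 7 genes gave 6 distinct promoters.

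The question was how DNA methylation in the cluster differed between conventional and reset cells. DNA of H9, a human line of embryonic stem cells, was read by whole-genome bisulfite sequencing, which tells methylated from unmethylated cytosines, in 3 conventional and 3 reset libraries. Conventional cells grew in 20% KSR, a serum replacement, with 10 ng/ml bFGF. Reset cells had been transfected with NANOG and KLF2, induced with doxycycline, and were then held without doxycycline in N2B27 medium with LIF, 1 μM CHIR99021, 1 μM PD0325901 and 5 μM Gö6983. Both groups were kept on mouse embryonic fibroblast feeders in 5% oxygen, and a share of reads from feeder DNA was not tested. The libraries held 92023996 to 98004161 calls in conventional and 70329213 to 80199615 calls in reset cells, or 2.51 to 3.49 calls per CpG. Single CpGs are therefore weakly measured, and levels below are methylated calls over all calls in a region. The level of all calls fell from 84.4% ± 0.161 to 30.01% ± 0.432 (SD, n = 3).

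In this cluster the maternal and paternal copies are used differently. The control region at SNRPN is methylated on the maternal copy and unmethylated on the paternal copy, from which MKRN3, MAGEL2, NDN, SNRPN, SNURF and the small nucleolar RNA arrays are expressed. UBE3A is expressed from the maternal copy in neurons and from both copies in most other cells. Loss of the paternal contribution causes Prader-Willi syndrome, and loss of maternal UBE3A causes Angelman syndrome. Bisulfite reads here were not assigned to a parental copy, so a level near the middle of the scale cannot tell 1 methylated and 1 unmethylated copy from a mixture of cells.

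Sequences of 6 stretches, with CpGs in capitals, are given to show stretches that lost methylation, one that had hardly any in either group and one that gained it. They come from the GRCh37 genome, lie outside annotated exons, run 5′ to 3′ and are on the strand of the gene except for the intergenic stretch, which is on the plus strand. The first 4 were lower in reset cells, the stretch before UBE3A was near 0% in both groups, and the intergenic stretch was higher in reset cells. Intergenic here means outside named genes, as pseudogenes and genes known only by an identifier were not looked at.
MKRN3 upstream (chr15:23810112-23810411, plus strand): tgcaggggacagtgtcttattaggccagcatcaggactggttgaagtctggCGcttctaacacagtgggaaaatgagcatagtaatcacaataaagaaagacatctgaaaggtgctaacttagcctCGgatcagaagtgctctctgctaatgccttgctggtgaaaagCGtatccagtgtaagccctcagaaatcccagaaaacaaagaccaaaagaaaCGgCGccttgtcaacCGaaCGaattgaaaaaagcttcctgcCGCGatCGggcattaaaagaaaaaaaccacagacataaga
NDN upstream (chr15:23932453-23932752, minus strand): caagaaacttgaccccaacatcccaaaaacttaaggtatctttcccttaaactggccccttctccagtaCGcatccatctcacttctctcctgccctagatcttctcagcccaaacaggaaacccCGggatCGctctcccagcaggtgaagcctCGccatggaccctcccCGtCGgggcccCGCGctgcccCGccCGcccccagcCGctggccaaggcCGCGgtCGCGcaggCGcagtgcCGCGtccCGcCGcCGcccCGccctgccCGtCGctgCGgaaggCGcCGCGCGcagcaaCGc
SNURF upstream (chr15:25199782-25200081, plus strand): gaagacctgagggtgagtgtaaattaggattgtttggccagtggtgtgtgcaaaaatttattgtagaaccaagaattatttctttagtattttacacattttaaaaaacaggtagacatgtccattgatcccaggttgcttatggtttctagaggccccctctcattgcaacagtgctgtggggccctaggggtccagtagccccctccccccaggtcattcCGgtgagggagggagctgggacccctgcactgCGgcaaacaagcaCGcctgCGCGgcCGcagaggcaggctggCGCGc
Control region, intronic (chr15:25200739-25201038, plus strand): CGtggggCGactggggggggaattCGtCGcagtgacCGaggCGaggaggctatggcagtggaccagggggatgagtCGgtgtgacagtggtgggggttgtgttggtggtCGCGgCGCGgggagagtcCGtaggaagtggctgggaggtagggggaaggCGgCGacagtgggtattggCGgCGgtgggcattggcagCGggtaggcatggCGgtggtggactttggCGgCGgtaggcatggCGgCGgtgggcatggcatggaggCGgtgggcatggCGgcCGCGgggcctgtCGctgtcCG
UBE3A upstream (chr15:25684199-25684498, minus strand): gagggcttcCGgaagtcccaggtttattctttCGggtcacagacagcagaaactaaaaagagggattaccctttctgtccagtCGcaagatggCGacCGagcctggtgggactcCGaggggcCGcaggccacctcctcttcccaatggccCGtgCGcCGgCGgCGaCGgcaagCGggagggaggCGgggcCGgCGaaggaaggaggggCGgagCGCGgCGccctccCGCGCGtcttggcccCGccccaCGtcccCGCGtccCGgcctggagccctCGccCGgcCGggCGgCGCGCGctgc
Intergenic, between UBE3A and ATP10A (chr15:25915243-25915542, plus strand): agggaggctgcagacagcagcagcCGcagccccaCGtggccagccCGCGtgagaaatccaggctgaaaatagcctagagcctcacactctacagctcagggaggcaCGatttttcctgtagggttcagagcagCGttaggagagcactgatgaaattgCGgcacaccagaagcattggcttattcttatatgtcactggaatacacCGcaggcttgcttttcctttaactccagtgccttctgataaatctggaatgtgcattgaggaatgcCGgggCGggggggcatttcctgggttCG

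The stretch 410 to 709 bases before the MKRN3 start held 10 CpGs and fell from 91.8% ± 6.52 to 0% in all 3 reset libraries (SD, n = 3). The 8 CpGs before SNURF, 53 to 352 bases from the start, read 90%, 47.8% and 50% in conventional cells and 0% in every reset library. These 8 CpGs lie inside the control region described below and are no independent measurement of it. The 30 CpGs before NDN were at 70.8% ± 22.5 and 3.85% ± 4.52, and the 28 CpGs of the control region intron at 20.6% ± 4.82 and 2.35% ± 4.07 (SD, n = 3). The 36 CpGs before UBE3A gave no methylated call in the conventional libraries and 0.595% ± 1.03 in reset cells. The intergenic stretch, with 11 CpGs, was at 5.02% ± 1.65 and 27.95% ± 1.56. These stretches rest on 10 to 91 calls in a library. Reset cells had 0 methylated of 125 calls before MKRN3 and 0 of 62 before SNURF, and conventional cells 0 of 182 before UBE3A. Neighbouring CpGs can lie on the same read, so these calls are not independent and set no close limit on the methylated share.

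The control region was at an intermediate level in conventional cells and close to unmethylated in reset cells. It was the longest predicted CpG island at the start, chr15:25199951-25201217, which covers the start, the first exon and part of the first intron, with 82 CpGs and a GC content of 61.6%. Its level was 43.9%, 51.2% and 37.2% in conventional libraries 1 to 3, on 172 to 196 calls, and 4.67%, 2.33% and 4.07% in reset libraries 1 to 3, on 150 to 215 calls. The groups did not overlap. The quasi-binomial fit modelled the methylated calls with limma squeezing the spread between libraries. The mean level changed by -40.4 points ± 4.08 (SE, adjusted p = 1.02e-07 by the quasi-binomial fit with limma, over 109308 islands), and 8.36% of the conventional level remained. Here and below, changes and SEs were taken from the library levels, and only the p came from the fit. Of all islands tested, 83.8% were lower in reset cells and 3.81% higher at an adjusted p under 0.05. Under a stricter definition, given below for ATP10A, the region was chr15:25199967-25201212 with the same levels, and 36.1% of those islands were lower and 10.3% higher.

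The control region was cut into 4 parts of equal length. The part that holds the start, which ends 133 bases after it, was at 53.4% ± 8.09 in conventional cells and had 0 methylated of 170 calls in reset cells. These calls include those of the stretch before SNURF given above. They also share reads between neighbouring CpGs and set no close limit on the methylated share. The next part was at 52.5% ± 19.1 and 4.84% ± 6.22. The third was at 24.1% ± 10.9 and 5.58% ± 4.93, and the last at 25.03% ± 16.0 and 2.15% ± 3.72 (SD, n = 3). All parts were low in reset cells, and those nearest the start were the more methylated ones in conventional cells. The third and last parts rest on as few as 15 and 13 calls in a library. The tile at 25201001, which takes in most of the last part and runs beyond it, was at 45.2% ± 12.6 in conventional cells (SD, n = 3). Pooled over the libraries of a group, 56 of the 82 CpGs had 5 or more calls in each group. Of these, 45 were between 25% and 75% in conventional cells, 39 were at 0% in reset cells, and 20% was the highest level of any in reset cells.

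**Figure D1:**
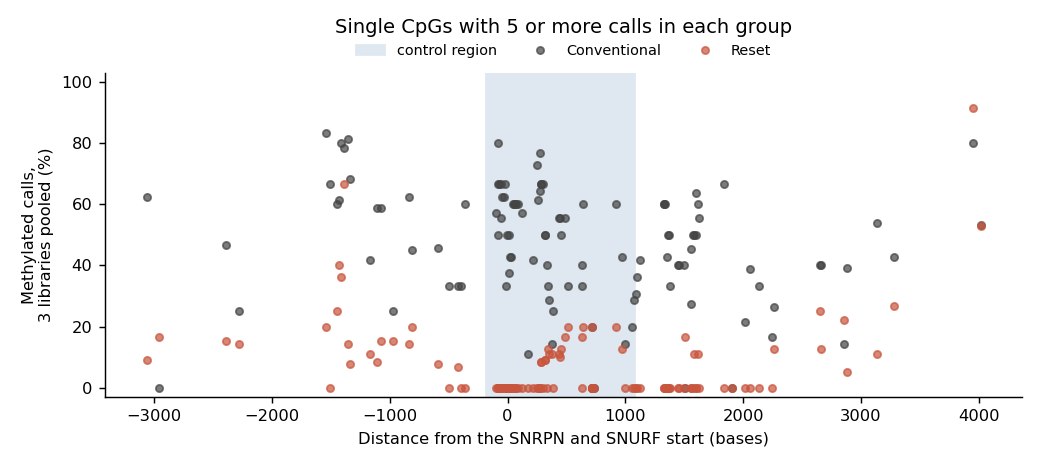
Each point is 1 CpG with 5 or more calls in each group, at its distance in bases from the SNRPN and SNURF start, and the vertical axis is the percent of methylated calls with the 3 libraries of a group pooled (grey, Conventional; red, Reset). Inside the shaded control region all 56 CpGs shown are at 20% or lower in Reset.

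The low levels in reset cells ran beyond the island. The tile starting at 25200001, with 71 CpGs, fell from 42.8%, 54.1% and 39.3% to 5.19%, 2.63% and 3.12%, and the next tile, with 42 CpGs, from 59.8%, 38.1% and 37.7% to 0%, 0% and 4.24%. The tile before the start, at 25199001, was at 40%, 43.4% and 57.9% and then 13.95%, 7.69% and 2.94%. A further low tile lay at 25196001, at 33.8%, 34.2% and 31.2% in conventional and 1.72%, 8.33% and 9.26% in reset libraries. Of the 2 tiles between it and these, that at 25197001, with 4 CpGs, was at 38.1%, 11.8% and 50% and then 30.8%, 10% and 5.88%, so the groups overlapped. That at 25198001 was at 65.2%, 72.9% and 73.3% and then 28.9%, 30.6% and 16.7%. From the tile at 25205001 onwards the levels were those of the surrounding gene, at 85.2%, 86.5% and 72.0% in conventional and 21.9%, 29.2% and 46.4% in reset cells.

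The promoters of MKRN3 and NDN and the shared promoter of SNRPN and SNURF lost most of their methylation. That of MAGEL2 passed the test with overlapping groups, and those of UBE3A and ATP10A, at the other end of the cluster, did not pass it. Of the 7 promoters 5 were lower and 0 higher in reset cells (4 of the 6 distinct ones), beside 67.4% lower and 3.98% higher of the 19300 promoters tested. The 6 distinct promoters had a median of 45.2% in conventional and 6.17% in reset cells, and all promoters tested had medians of 15.4% and 4.98%. At an unadjusted p under 0.05 the count higher was also 0, and 0 members were called higher by edgeR or by Fisher's exact test on pooled calls.

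MKRN3 encodes a ring finger ubiquitin ligase in which loss-of-function changes cause early puberty. Its promoter, chr15:23809821-23811321, read 97.3%, 95.6% and 91.7% in conventional and 4.04%, 2.44% and 1.53% in reset libraries. This was a change of -92.2 points ± 1.81 (SE, adjusted p = 7.36e-10 by the quasi-binomial fit with limma). The promoter was not at an intermediate level in conventional cells, and reset cells held 2.81% of that level. The 2 predicted islands at its start, of 18 and 19 CpGs, gave 96.3% ± 4.78 and 96.3% ± 4.502 in conventional and 0% and 0.565% ± 0.979 in reset cells (SD, n = 3).

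NDN encodes necdin, a protein that holds back growth in neurons. Its promoter, chr15:23931952-23933452, was at 68.9%, 64.6% and 86.2% and then at 9.92%, 6.38% and 9.20%. The groups were far apart, with a change of -64.7 points ± 6.69 (SE, adjusted p = 8.06e-08 by the quasi-binomial fit with limma). Over the island at its start, chr15:23931419-23932767, which reaches into the exon, the levels were 54.5%, 54.1% and 70.8% and then 22.2%, 12.1% and 11.8%, and reset cells held 25.7% of the conventional level there against 11.6% over the promoter. NDN has a single exon, and its body, chr15:23930547-23931951, behaved otherwise. There the levels were 46.9%, 48.0% and 43.1% in conventional and 47.0%, 32.9% and 29.4% in reset libraries, so reset library 1 lay within the conventional range. The body did not pass the test (-9.55 points ± 5.57, SE, adjusted p = 0.124 by the quasi-binomial fit with limma). Without reset replicate 1 it did, at -14.8 points and an adjusted p of 0.0251, and without reset replicate 3 the change was -6.03 points with an adjusted p of 0.343. The tile at 23932001, which holds the start, fell from 73.6% ± 11.6 to 7.41% ± 1.65, whereas the tile at 23931001 was at 42.1% ± 3.32 and 38.8% ± 10.4 (SD, n = 3), with an adjusted p of 0.455 by the quasi-binomial fit with limma.

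MAGEL2, another gene without introns, encodes a protein that guides a ubiquitin ligase. Its promoter, chr15:23892514-23894014, was at 45.7%, 44.2% and 27.4% in conventional and at 14.9%, 11.4% and 29.7% in reset libraries. Reset library 3 was above conventional library 3, so the groups overlapped. The change was -20.4 points ± 8.12 (SE, adjusted p = 0.00664 by the quasi-binomial fit with limma). It did not pass for a promoter of 500 bases on each side of the start (adjusted p = 0.0712) or with a replicate block (adjusted p = 0.0514). As a mean over CpGs, in which each CpG counts alike, the change was -11.4 points.

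SNRPN encodes a spliceosome protein and SNURF a small protein read from the same transcript. Their promoter, chr15:25199134-25200634, overlaps the control region and is no independent measurement of it. It was at 48.8%, 57.5% and 47.5% in conventional and 6.71%, 3.83% and 0.962% in reset libraries, a change of -47.4 points ± 3.55 (SE, adjusted p = 1.25e-07 by the quasi-binomial fit with limma).

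UBE3A encodes a ubiquitin ligase. Its promoter, chr15:25683671-25685171, with 124 CpGs, was close to unmethylated in both groups, at 1.22%, 3.00% and 2.59% and at 0.455%, 0.822% and 1.06%. The difference of -1.49 points ± 0.564 did not pass the test (SE, adjusted p = 0.0791 by the quasi-binomial fit with limma). It passed without conventional replicate 1, at -2.01 points and an adjusted p of 0.0423. Over the island at the start, chr15:25683056-25684530, with 164 CpGs, the levels were 0.492% ± 0.184 and 0.740% ± 0.753 (SD, n = 3), with an adjusted p of 0.750 by the quasi-binomial fit with limma.

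ATP10A, which encodes a phospholipid-transporting ATPase, was the only member with a region at its start that was called higher in reset cells. Over the whole promoter, chr15:26107974-26109474, the levels were 27.4%, 9.69% and 9.13% in conventional and 14.1%, 17.8% and 15.3% in reset libraries. Conventional library 1 stood above all others, and no difference was detected (0.384 points ± 6.08, SE, adjusted p = 0.836 by the quasi-binomial fit with limma). Without conventional replicate 1 the promoter was 6.37 points higher in reset cells with an adjusted p of 0.0206. Within 500 bases of the start the levels were 3.38%, 1.36% and 0.976% in conventional and 7.69%, 7.58% and 6.74% in reset libraries, a rise of 5.44 points ± 0.804 (SE, adjusted p = 0.00358 by the quasi-binomial fit with limma).
The island at the start, chr15:26107405-26109439, rose from 12.4% ± 6.98 to 24.0% ± 1.92 (SD, n = 3), with an adjusted p of 0.00288 by the quasi-binomial fit with limma. It was the only island called higher of 104 tested in the cluster. Under a stricter definition (at least 500 bases, GC content of 55% and a ratio of observed to expected CpGs above 0.65) the island was chr15:26107441-26108955, and it read 4.63%, 1.40% and 3.17% in conventional and 22.8%, 17.4% and 16.8% in reset libraries. That was a rise of 15.9 points ± 2.13 (SE, adjusted p = 0.000166 by the quasi-binomial fit with limma). Of all 23811 such islands tested, 36.1% were lower and 10.3% higher in reset cells.

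**Figure D2:**
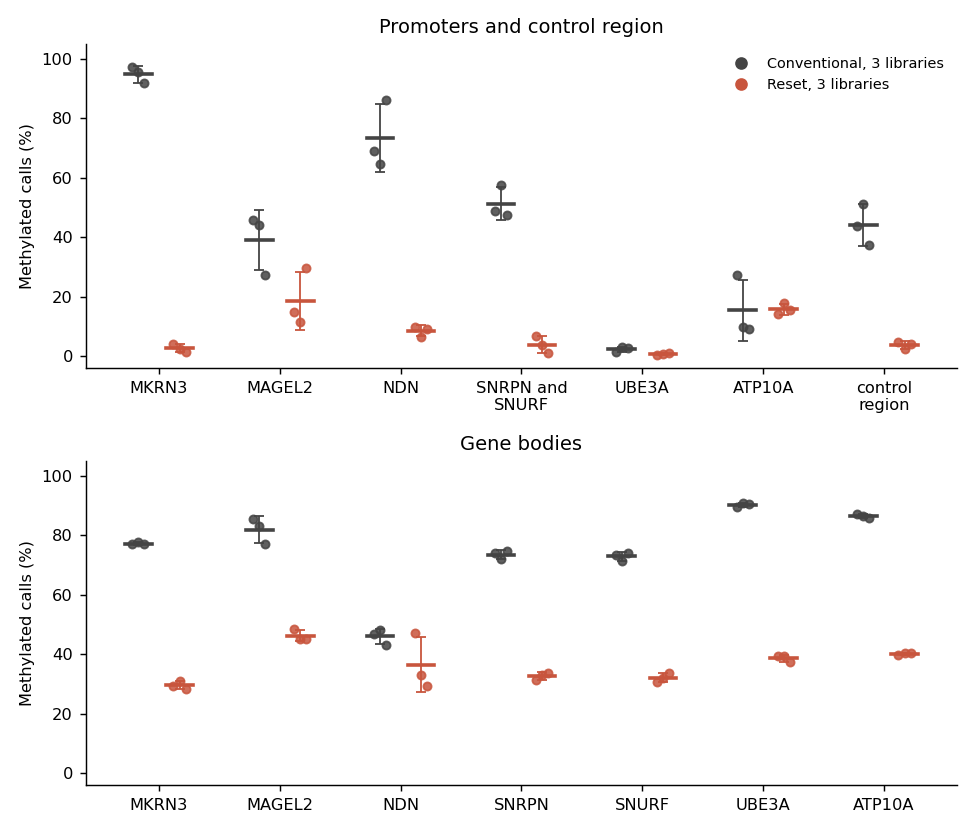
Percent of methylated calls in each of 3 Conventional (grey) and 3 Reset (red) libraries, with the mean as a bar and the SD as an error bar, for the promoters and control region (top) and the gene bodies (bottom). The promoters of MKRN3, NDN and SNRPN and SNURF and the control region lie at 9.92% or lower in every Reset library, while the 7 bodies lie at 28.3% to 48.5% in Reset.

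In every reset library the body of each member was more methylated than its promoter, and the medians over all genes had the same order, at 34.0% for bodies and 4.98% for promoters. The order was the other way round for MKRN3 and NDN in conventional cells. It was also the other way round in reset cells for NPAP1, an imprinted gene of the cluster that is no member, at 38.5% ± 2.45 in the body and 57.9% ± 12.3 at the promoter (SD, n = 3). Of the 7 bodies 6 were lower and 0 higher, beside 97.9% lower and 1.11% higher of the 19176 bodies tested. By edgeR and by Fisher's exact test 0 bodies were higher as well. The long bodies of UBE3A and ATP10A fell from 90.3% ± 0.632 to 38.6% ± 1.21 and from 86.5% ± 0.557 to 40.1% ± 0.372 (SD, n = 3). MKRN3 went from 77.2% ± 0.418 to 29.6% ± 1.35, MAGEL2 from 81.9% ± 4.46 to 46.3% ± 1.91 and SNRPN from 73.5% ± 1.44 to 32.6% ± 1.27 (SD, n = 3). In the annotation used, the body of MKRN3 spans 63901 bases with 623 CpGs and that of MAGEL2 3818 bases. The MKRN3 body level is therefore mostly that of sequence far from its start. The bodies of SNRPN and SNURF share nearly all their CpGs, and both enter the counts above and the median below. The 7 members held 38.3% to 79.2% of their conventional level in the body, the highest share being that of NDN, and their median was 36.4% in reset cells.

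Along the cluster, chr15:23710821-26210331, methylation fell nearly everywhere but to different extents. The cluster as a whole was at 81.3%, 81.0% and 80.9% in conventional and 30.8%, 31.6% and 31.5% in reset libraries. The groups did not overlap in any interval described here, and each gave an exact permutation p of 0.1 (two-sided), the smallest p that 3 against 3 libraries allow, so no interval could pass 0.05. The lowest levels in reset cells outside the control region lay between NDN and SNRPN, at 25.2% ± 0.452 after 78.1% ± 0.343 (SD, n = 3). The upstream exons of SNRPN, which lie before the control region, were at 77.8% ± 1.45 and 39.7% ± 0.657 (SD, n = 3). After the control region the rest of SNURF and SNRPN was at 34.9% ± 2.21 in reset cells.

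The small nucleolar RNA arrays differed from each other. SNORD116, whose 25 copies in the annotation are hosted by SNHG14 and whose loss is central to Prader-Willi syndrome, was at 84.97%, 86.0% and 85.1% in conventional and 46.7%, 51.6% and 47.9% in reset libraries. SNORD115, with 44 copies, was at 83.4%, 84.8% and 83.7% and then at 30.9%, 31.2% and 31.2%. The arrays were thus at like levels in conventional cells, and every reset library was lower over SNORD115 than over SNORD116. The difference between the arrays was not tested. Copies within an array are alike in sequence, and calls per CpG were 2.21 to 3.39 over SNORD116 and 1.93 to 2.81 over SNORD115.

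**Figure D3:**
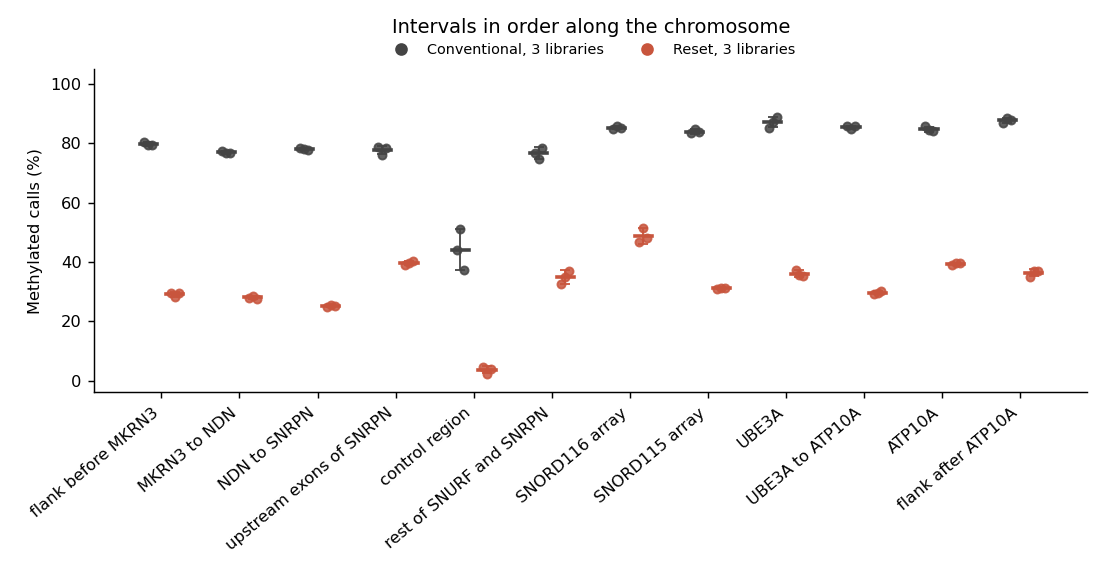
Percent of methylated calls in each of 3 Conventional (grey) and 3 Reset (red) libraries for 12 intervals in chromosome order, with the mean as a bar and the SD as an error bar. Outside the control region, Reset means run from 25.2% between NDN and SNRPN to 48.7% over the SNORD116 array.

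The lncRNA promoters of the cluster that could be tested were lower too. The lncRNA promoters of PWRN1, PWRN2 and SNHG14, 3 of the 9 lncRNAs listed, could be tested, and 3 of 3 were lower, beside 86.2% lower and 3.15% higher of 17636 lncRNA promoters. PWRN1 fell from 82.1% ± 6.21 to 23.5% ± 10.3, PWRN2 from 71.9% ± 8.31 to 12.4% ± 10.8 and SNHG14 from 87.2% ± 3.15 to 33.9% ± 4.54 (SD, n = 3). The canonical start used for SNHG14, at 25438460, lies inside the SNORD115 array, far from the 5′ end of the gene at 25223730, so this promoter is not that of a transcript that hosts both arrays. That used for PWRN1, at 24390510, also lies far from the 5′ end of the gene, at 24346974. The island at that end, chr15:24346656-24347126, was at 38.0% ± 14.9 and 24.0% ± 27.3 with overlapping groups (SD, n = 3). With as few as 9 calls in a library it was not tested. Over their whole length PWAR5, PWAR6 and PWAR1 were at 81.5% ± 3.82, 84.0% ± 0.322 and 76.2% ± 3.34 in conventional cells. In reset cells they were at 44.1% ± 4.43, 43.0% ± 6.98 and 42.8% ± 7.20 (SD, n = 3). Each gave an exact permutation p of 0.1 (two-sided), the smallest that this design allows. SNORD64, SNORD108 and SNORD109B hold 1 or 2 CpGs each with 1 to 8 calls in a library, too few to read. NPAP1, which lies within PWRN1 in the annotation, kept 62.7% of its conventional level at the promoter. It read 86.1%, 94.4% and 96.8% in conventional and 72.0%, 52.9% and 48.9% in reset libraries, a change of -34.5 points ± 7.81 (SE, adjusted p = 6.63e-05 by the quasi-binomial fit with limma).

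Of 2501 tiles in the cluster 1863 had at least 10 calls in every library, and 1840 of these were lower (98.8%) and 4 higher (0.215%). Over all 2060730 tiles tested 98.3% were lower and 0.421% higher, so the share lower in the cluster was close to the background. The level in conventional cells from which the tiles fell was lower in the cluster. The median was 84.1% in the cluster and 91.7% over all tiles, and 20.5% of cluster tiles against 7.18% of all tiles were between 25% and 75%. The difference in these shares was not tested. Of the cluster tiles at 25% to 75%, 14.4% were under 10% in reset cells, and of all such tiles 23.01%. Tiles with more CpGs kept more in both sets. Cluster tiles with 1 to 5 CpGs kept 31.8% of their conventional level and those with 21 or more 45.3%, beside 26.4% and 43.9% over all tiles.

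The 3 tiles with the largest rise lay between the start of UBE3A and the start of ATP10A. The tile at 26107001, which overlaps annotated exons of ATP10A and holds 60 CpGs, went from 22.1%, 8.38% and 24.7% to 60%, 46.0% and 46.6% (adjusted p = 1.06e-16 by the quasi-binomial fit with limma). It overlaps the island at the ATP10A start and is no independent measurement of it. In the tile fit the spread was squeezed almost wholly to a common value (988 prior degrees of freedom, beside 9.995 for promoters). The p of a tile therefore hardly carries its own spread between libraries. The tile at 25915001, from which the intergenic sequence was taken, went from 4.29%, 7.35% and 4.41% to 43.1%, 26.7% and 38.1%. The tile at 25888001 went from 1.59%, 6.45% and 5.71% to 35.5%, 17.02% and 49.1%. The last 2 lay between UBE3A and ATP10A in no named gene, and were stretches of low methylation in conventional cells. Pseudogenes and genes known only by an identifier were not looked at. The highest levels left in reset cells were in the tile at 26014001 within ATP10A, at 94.5% ± 1.77 and then 75.6% ± 7.18, the tile at 25250001 within SNHG14, at 79.4% ± 0.608 and 72.5% ± 7.47, and the tile at 25632001 within UBE3A, at 94.0% ± 5.17 and 70.4% ± 5.74 (SD, n = 3). The second of these did not pass the test (adjusted p = 0.274 by the quasi-binomial fit with limma).

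**Figure D4:**
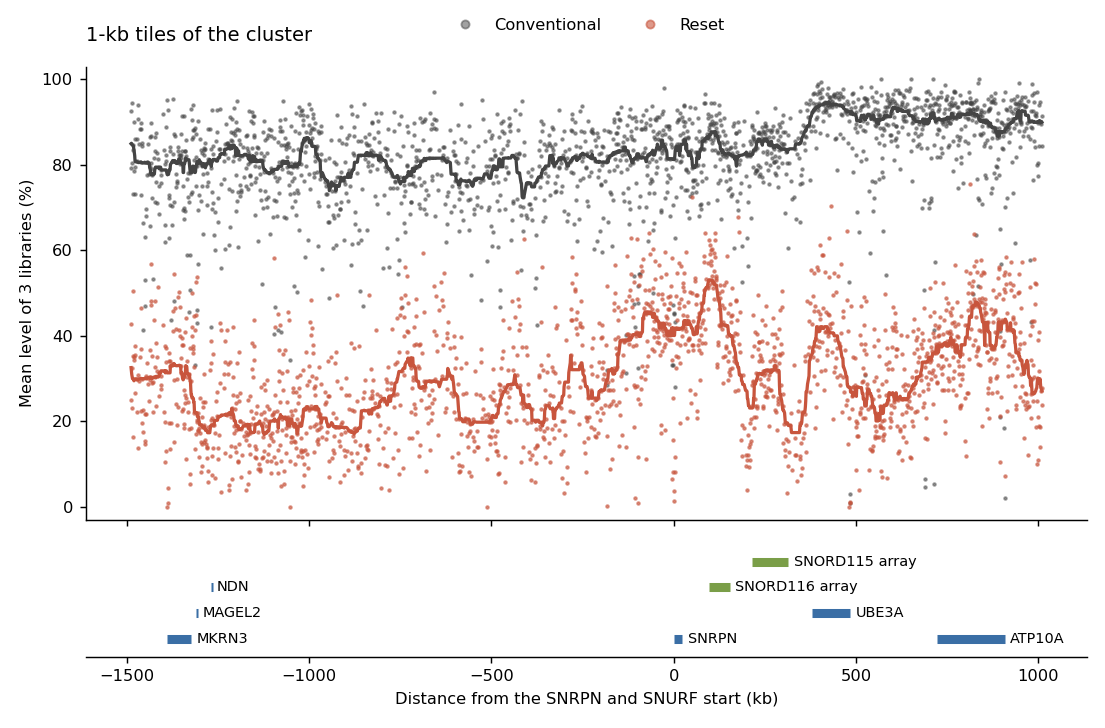
Each point is a 1-kb tile with at least 10 calls in every library, at its distance in kb from the SNRPN and SNURF start, and the vertical axis is the mean level of 3 libraries (grey, Conventional; red, Reset). Lines are running medians over neighbouring tiles, bars below mark genes and arrays, and Reset is lower than Conventional in all but a few tiles.

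Other islands in the cluster also went from an intermediate level to one near 0%. Of 143 predicted islands 104 were tested, and 101 of them were lower and 1 higher in reset cells, against a background of 83.8% and 3.81%. Of the tested islands 10 lay between 25% and 75% in conventional cells, and 6 of these ended under 5%, where 19.3% of the 5228 autosomal islands of that starting level did. Besides the control region these were chr15:25018100-25018947 within PWRN1, which went from 32.5% ± 4.28 to 0.290% ± 0.502, and chr15:25093083-25093637 among the upstream exons of SNRPN, which went from 34.4% ± 17.8 to 1.64% ± 1.64 (SD, n = 3). The others lay between NDN and PWRN1, at chr15:23959162-23959714, chr15:24114472-24114997 and chr15:24123052-24123560, and ended at 3.42% ± 3.02, 2.52% ± 0.827 and 2.41% ± 2.85. Over those 5228 islands the median in reset cells was 17.3%, with quartiles of 6.98% and 32.0%. Of these, 15.6% ended below the level of the control region.

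Set beside 3 other control regions that carry methylation on the maternal copy, the SNRPN region was lower than 2 of them in every reset library. The island at KCNQ1OT1, chr11:2720129-2722235, was at 56.7%, 47.9% and 42.7% and then 39.7%, 25.3% and 19.9%. The island at MEST, chr7:130130114-130131602, which ends before the canonical start at 130131926, was at 48.2%, 46.9% and 45.2% and then 28.4%, 35.7% and 16.3%. Both started near the level of the SNRPN region and kept 57.7% and 57.3% of it, where the SNRPN region kept 8.36%. The value at MEST moved with the window. Over its promoter 84.6% was kept (adjusted p = 0.226 by the quasi-binomial fit with limma) and over the island by the stricter definition 65.4% (adjusted p = 0.137), and the groups overlapped in both. The island at PEG3, chr19:57351121-57352273, differed at the start, with 97.2%, 93.1% and 96.6% in conventional cells, and ended at 1.04%, 1.27% and 0.629%.
The level of the SNRPN region minus that of the KCNQ1OT1 island was -5.01 points ± 8.04 in conventional and -24.6 points ± 9.69 in reset cells, and minus that of the MEST island -2.67 points ± 6.30 and -23.1 points ± 10.6 (SD, n = 3). These differences changed by -19.6 and -20.4 points, and the difference from the PEG3 island by 54.2 points. Each comparison gave an exact permutation p of 0.1 (two-sided, adjusted p = 0.1 over the 3), the smallest that this design allows.

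**Figure D5:**
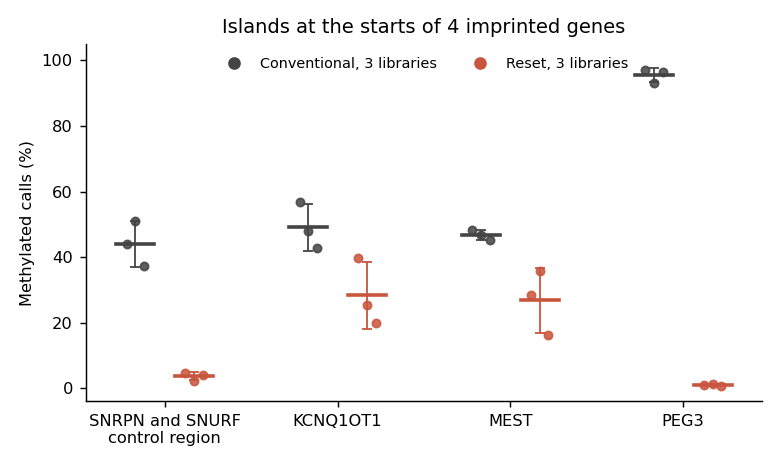
Percent of methylated calls in each of 3 Conventional (grey) and 3 Reset (red) libraries, with the mean as a bar and the SD as an error bar, for the islands at the starts of 4 imprinted genes. Reset libraries are at 2.33% to 4.67% at SNRPN and SNURF, at 16.3% to 39.7% at KCNQ1OT1 and MEST, and at 0.629% to 1.27% at PEG3.

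The letters of the control region were searched on both strands for TGCCGC, the core bound by ZFP57, a protein that keeps methylation at imprints, and for GCGCATGCG, a core of NRF1 sites. The 2 motifs can overlap only at their ends. TGCCGC occurred 3 times in the SNRPN region, 6 times in the KCNQ1OT1 island, 6 times in the PEG3 island and 0 times in the MEST island. These differ in length, at 1267, 2107, 1153 and 1489 bases in that order, so the counts are not directly comparable. A stretch as long as the control region, from islands at least that long, held it in 70.7% of 9682 cases. That share matches the length of the SNRPN region only. Among the promoters it occurred 3 times at MKRN3, 2 times each at SNRPN and SNURF (the same bases) and ATP10A, 1 time each at NDN and UBE3A and not at MAGEL2, and 53.8% of all 19819 promoters held it. GCGCATGCG was in no promoter of the members and in none of the 4 islands, where 3.84% of all promoters and 4.62% of the island stretches held it.

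Nonimprinted genes that flank the cluster were read in the same way. On the side of MKRN3, the bodies of TUBGCP5, CYFIP1, NIPA2 and NIPA1 were lower in reset cells, and so were the promoters of CYFIP1, NIPA2 and NIPA1. The promoter of NIPA2 went from 12.4% ± 2.12 to 0.323% ± 0.559, and that of TUBGCP5, at 10.05% ± 3.09 and 9.49% ± 4.23, did not pass the test (SD, n = 3). On the side of ATP10A, the promoter of GABRG3 fell from 22.5% ± 9.15 to 8.12% ± 4.51 with overlapping groups (12.0% in conventional library 2 and 12.6% in reset library 1), and those of GABRA5, at 8.40% ± 1.117 and 12.4% ± 4.12, and OCA2, at 9.78% ± 2.51 and 11.7% ± 4.02, did not pass the test (SD, n = 3). HERC2 had a library with under 10 calls in the promoter and was not tested there. The bodies of GABRA5, GABRG3, OCA2 and HERC2 were lower. Coverage per CpG in the cluster, relative to the autosomal mean of a library, was 1.02 in conventional and 0.940 in reset cells (exact permutation p = 0.1, two-sided). Over the control region it was 0.661 and 0.796. Its part in the levels was not tested.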

How the data were processed

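Genomic DNA of H9 cells was sonicated, ligated to methylated adapters, bisulfite-treated and amplified, and 3 conventional and 3 reset libraries were sequenced. Per the labels, reads were trimmed with Trim Galore and mapped to GRCh37 with Bismark and Bowtie2. The submitters' processing notes name Bismark 0.9.0, the study's methods name an earlier version, and the version used for these tables was not settled from the sources. The authors deposited, for each cytosine, counts of methylated and unmethylated calls and the percent methylated. The deposited percent column equalled the ratio of the counts. Positions were counted from 0 (99.8% fell on CpGs) and are printed from 1.

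Counts of both strands of a CpG were summed. Members and lists were chosen with earlier results of these data known. All 7 genes, the control region, listed neighbours (1 of which is not reported here) and 3 comparison islands were named, with the 3 tiles of largest rise and the 3 of highest level left. Tests took regions that had 10 calls or more in each library and used a quasi-binomial model of the calls, with dispersions squeezed by limma 3.58.1 and kept at 1 or more, and Benjamini-Hochberg adjustment over all regions of a kind at 0.05. Islands were merged 200-base windows (GC content at least 50%, observed to expected CpG over 0.6). Genes came from GENCODE 44 lifted to GRCh37. Interval levels were compared by exact permutation. Libraries of a group are called biological replicates in the study, and pairs of libraries in a group differed beyond sampling noise. edgeR 4.0.16 was an alternative. Symbols IPW, PWAR4, PWARSN, SNORD107 and SNORD109A were not matched in the annotation and are not analysed here.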

Additional observations from a re-analysis of the deposited data

How the results depend on the processing

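The fits were repeated with other filters, windows, tests and libraries, which gave 493 values, and 469 kept their direction and side of the threshold or, for levels and counts, moved by less than the spread or 1.5 times. The control region was lower in each of them, by -43.8 to -36.9 points when a library was left out. Whether the replicate numbers of the titles pair the libraries was not settled. Deviations from the group mean of same-numbered libraries over 19300 promoters correlated at 0.00724, 0.0114 and 0.00937. Those of differently numbered libraries correlated at -0.0161 to 0.00701. All values were near 0, which cannot exclude a pairing. With a replicate block the control region changed by -40.4 points (adjusted p = 0.000689 by the quasi-binomial fit with limma), 4 instead of 5 member promoters were called, MAGEL2 being lost, and 1834 instead of 1840 tiles were lower. The block changed no other call among the member promoters and bodies, the promoters of PWRN1, PWRN2 and SNHG14, the control region and the number of tiles higher, and it was not tabulated for the other regions reported. The promoter of UBE3A turned to 0.159 points within 500 bases of the start, and that of ATP10A to -2.47, -2.75 and -0.643 points without conventional replicate 2, conventional replicate 3 and reset replicate 2, none of which passed the test, and left-out libraries gave a range of -2.75 to 6.37 points. With a minimum of 20 calls 948 tiles of the cluster were lower, because fewer tiles were tested. The mean over tiles gave a change of -50.9 points for the whole cluster against -49.8 points from pooled calls. Fisher's exact test on pooled calls, which ignores the spread between libraries, called the UBE3A promoter (adjusted p = 0.0378) and the NDN body (adjusted p = 0.0319) lower. The depth of 2.51 to 3.49 calls per CpG limits single CpGs and single tiles.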
